A study of Mus musculus with 4 samples.

Results

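The 6 genes described here carry ketone bodies and related monocarboxylates through the kidney tubule or turn them into acetyl-CoA, and their RNA was followed in single cells of whole mouse kidney. They are *Bdh1*, *Oxct1*, *Acat1*, *Slc16a1*, *Slc5a8* and *Slc5a12*, taken by symbol from the 32285 genes in the count tables. Each symbol matched 1 identifier. Male C3H mice were wild type (WT) or homozygous for a missense mutation in *Slc5a2* that removes SGLT2 function (SP, Sweet Pee, labelled MT). They received normal diet (ND) or high-fat diet (HFD, 60% of calories from fat) from 10 weeks of age for 8 weeks and were 18 weeks old at harvest. There was 1 library for each genotype on each diet (WT-ND, SP-ND, WT-HFD, SP-HFD), so a diet or genotype ratio compares 2 libraries, has no replicate check and carries no p-value. The mutation is present in the germline, so every cell of an SP mouse carries it, and how many mice gave each library is not stated in the sources used here.

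Ketone bodies (acetoacetate and β-hydroxybutyrate) are made in mitochondria from fatty-acid-derived acetyl-CoA, chiefly in liver, and are burned in organs such as heart, brain and kidney. BDH1 interconverts acetoacetate and β-hydroxybutyrate, OXCT1 activates acetoacetate by transfer of CoA from succinyl-CoA, and ACAT1 splits acetoacetyl-CoA into acetyl-CoA, so that BDH1 and ACAT1 serve both directions while OXCT1 commits the carbon to use. SLC16A1 (MCT1) moves monocarboxylates with protons. SLC5A8 (SMCT1, high affinity) and SLC5A12 (SMCT2, low affinity) couple monocarboxylates such as lactate and ketone bodies to sodium at the luminal membrane of the proximal tubule (PT), which reabsorbs them from the filtrate.

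In the GENCODE M21 annotation of mouse build mm10, all 6 genes are protein coding. *Bdh1* (ENSMUSG00000046598) lies at chr16:31422280-31458901 on the plus strand. *Oxct1* (ENSMUSG00000022186) lies at chr15:4026383-4155344, *Slc16a1* (ENSMUSG00000032902) at chr3:104638668-104658462, *Slc5a8* (ENSMUSG00000020062) at chr10:88885992-88929515 and *Slc5a12* (ENSMUSG00000041644) at chr2:110597298-110647779, all on the plus strand. *Acat1* (ENSMUSG00000032047) lies at chr9:53580522-53610382 on the minus strand.

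RefSeq promoter sequence (build GRCm38.p6, the assembly also called mm10) was matched by symbol for 4 of the 6 genes, with 2 start sites for *Bdh1*. The 250 bases upstream of each start are shown because these genes took different courses along the PT: *Slc5a8* and *Bdh1* were higher in late PT, *Oxct1* was level and *Slc16a1* was lower. They are written 5′ to 3′ on the plus strand, with CpG pairs in capitals.
Slc5a8, chr10:88885742-88885991: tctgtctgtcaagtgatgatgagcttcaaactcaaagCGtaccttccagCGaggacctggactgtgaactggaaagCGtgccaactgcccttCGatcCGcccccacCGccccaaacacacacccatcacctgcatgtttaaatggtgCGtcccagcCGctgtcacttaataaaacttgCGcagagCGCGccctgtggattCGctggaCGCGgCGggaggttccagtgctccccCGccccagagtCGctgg
Bdh1, upstream start, chr16:31422047-31422296: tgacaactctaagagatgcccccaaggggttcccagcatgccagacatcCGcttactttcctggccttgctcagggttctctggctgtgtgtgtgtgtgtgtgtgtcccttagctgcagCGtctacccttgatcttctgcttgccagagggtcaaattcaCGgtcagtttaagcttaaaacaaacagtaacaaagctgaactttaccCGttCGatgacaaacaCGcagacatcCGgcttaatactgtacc
Bdh1, downstream start, chr16:31428503-31428752: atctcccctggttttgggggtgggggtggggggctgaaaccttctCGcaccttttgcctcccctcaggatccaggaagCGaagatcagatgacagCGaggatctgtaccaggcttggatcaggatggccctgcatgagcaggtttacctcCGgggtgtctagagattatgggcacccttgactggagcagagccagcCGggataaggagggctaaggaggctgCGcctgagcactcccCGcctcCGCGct
Oxct1, chr15:4026178-4026427: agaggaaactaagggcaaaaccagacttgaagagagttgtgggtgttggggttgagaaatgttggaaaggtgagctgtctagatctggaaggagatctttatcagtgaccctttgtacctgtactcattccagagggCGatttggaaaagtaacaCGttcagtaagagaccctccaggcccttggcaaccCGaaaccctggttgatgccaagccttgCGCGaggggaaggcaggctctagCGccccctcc
Slc16a1, chr3:104638414-104638663: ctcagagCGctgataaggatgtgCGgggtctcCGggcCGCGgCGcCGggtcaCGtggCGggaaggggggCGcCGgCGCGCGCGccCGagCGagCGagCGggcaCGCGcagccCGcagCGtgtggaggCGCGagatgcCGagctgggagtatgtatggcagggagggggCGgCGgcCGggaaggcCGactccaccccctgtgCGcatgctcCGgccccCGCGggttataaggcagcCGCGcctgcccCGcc
The *Slc16a1* window held 37 CpG pairs and the *Slc5a8* window 17, against 7 and 9 in the *Bdh1* windows, 6 in *Oxct1* and a median of 6 over the 32851 windows of this length. The letters AGGTCA (a nuclear receptor motif), CCAAT and TATAAA were searched on both strands and none of the 5 windows held any of them. This says only that these letters are not in these windows. Of all windows, 14.0% held AGGTCA, 33.8% CCAAT and 12.4% TATAAA.

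The libraries held 93142028 UMIs in WT-ND and 115117649 in WT-HFD, with 111617794 in SP-ND against 90728590 in SP-HFD. After filters on genes per cell, mitochondrial share and doublet score, 6389 to 9924 cells a library were kept. Cells were assigned to classes by the UMIs of marker genes, none of which was among the 6 genes, and 13 classes with at least 50 cells in each library were compared. PT cells were placed on an axis from early to late by 8 early and 8 late markers. Levels are given as CPM, the UMIs of a gene scaled by all UMIs of a class pooled within a library, and their 95% intervals cover counting error only. Early PT held 1344 cells in WT-ND and 766 in WT-HFD, with 737 in SP-ND against 292 in SP-HFD, and late PT held 823, 1037, 194 and 344. Of the PT cells placed on the axis, 18.8% to 30.5% lay within 0.05 of a border between early, middle and late. WT-HFD stood apart from the others: 20.7% of its cells had markers of more than 1 class, against 7.54% to 9.45% in the others. Such cells were in none of the classes compared. The 6 markers of the thick ascending limb (TAL) summed to 1478 CPM in its late PT, against 141 to 278 CPM in the other libraries. In early PT they summed to 614 CPM against 188 to 211 CPM. The paper reports a PT subcluster, seen mostly in WT-HFD, that also expressed *Slc12a1* and *Umod*, both among these TAL markers. How many cells of that subcluster were left out of the PT classes was not tested. Pairs of libraries shared 10 to 37 kept cell barcodes.

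The enzymes of ketone use were read along the whole nephron, whereas the transporters were highest in the PT. *Oxct1* was highest in the distal convoluted tubule (DCT), with 1318 CPM in WT-ND and 1118 in WT-HFD, with 1374 in SP-ND against 1277 in SP-HFD (mean 1272 ± 110, SD over 4 libraries that each are a different condition). The TAL followed with a mean of 850.2 CPM (732 to 934) and early PT with 601 CPM (558 to 645). The 4 DCT values did not overlap those of any other class compared. The DCT was picked as highest from these same values, and the share of all genes with such a separation was not counted. DCT was above the TAL by 0.61 on the log2 scale (SE 0.12, edgeR adjusted p = 0.00012). How many of all genes passed this comparison was not counted either. The TAL was above early PT in all 4 libraries, but this difference did not pass the test (log2 difference 0.24, SE 0.12, edgeR adjusted p = 0.092). Early and late PT did not differ beyond their spread, nor did late and middle PT. The lowest mean, 83.7 CPM, was in endothelial cells.

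*Bdh1* had 3 separate high points: late PT (77.8 CPM in WT-ND and 62.3 in WT-HFD, with 49.4 in SP-ND against 90.1 in SP-HFD), the TAL (58.5 to 72.5 CPM) and the DCT (57.4 to 69.2 CPM). The CPM ranges of these classes overlap. In the edgeR fit, whose scaling allows for the different make-up of the classes, late PT was above the TAL by 0.40 (log2, SE 0.16, adjusted p = 0.031), and the TAL and DCT did not differ beyond their spread (0.03, SE 0.17, adjusted p = 0.95). Fibroblasts and mural cells were next with 41.2 to 59.6 CPM. Early PT held only 6.13 to 12.5 CPM, so that within 1 nephron segment the gene covered most of its range. Podocytes were lowest, at a mean of 2.44 CPM. Among cells under 30% mitochondrial UMIs the TAL had the highest mean (73.6 CPM) and late PT the next (71.9 CPM).

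*Acat1* was highest in late PT, at 585 CPM in WT-ND and 441 in WT-HFD, with 406 in SP-ND against 512 in SP-HFD. It read 366 to 490 CPM in middle PT and 298 to 378 CPM in early PT, beside 345 to 401 CPM in the DCT and 259 to 336 CPM in the TAL. Neighbours in this order from late PT to the DCT did not pass the edgeR test, which adjusts over all genes of each comparison. Middle against early PT gave a log2 difference of 0.33 (SE 0.10, edgeR adjusted p = 0.105). DCT against TAL passed (log2 difference 0.28, SE 0.10, edgeR adjusted p = 0.049).

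**Figure D1:**
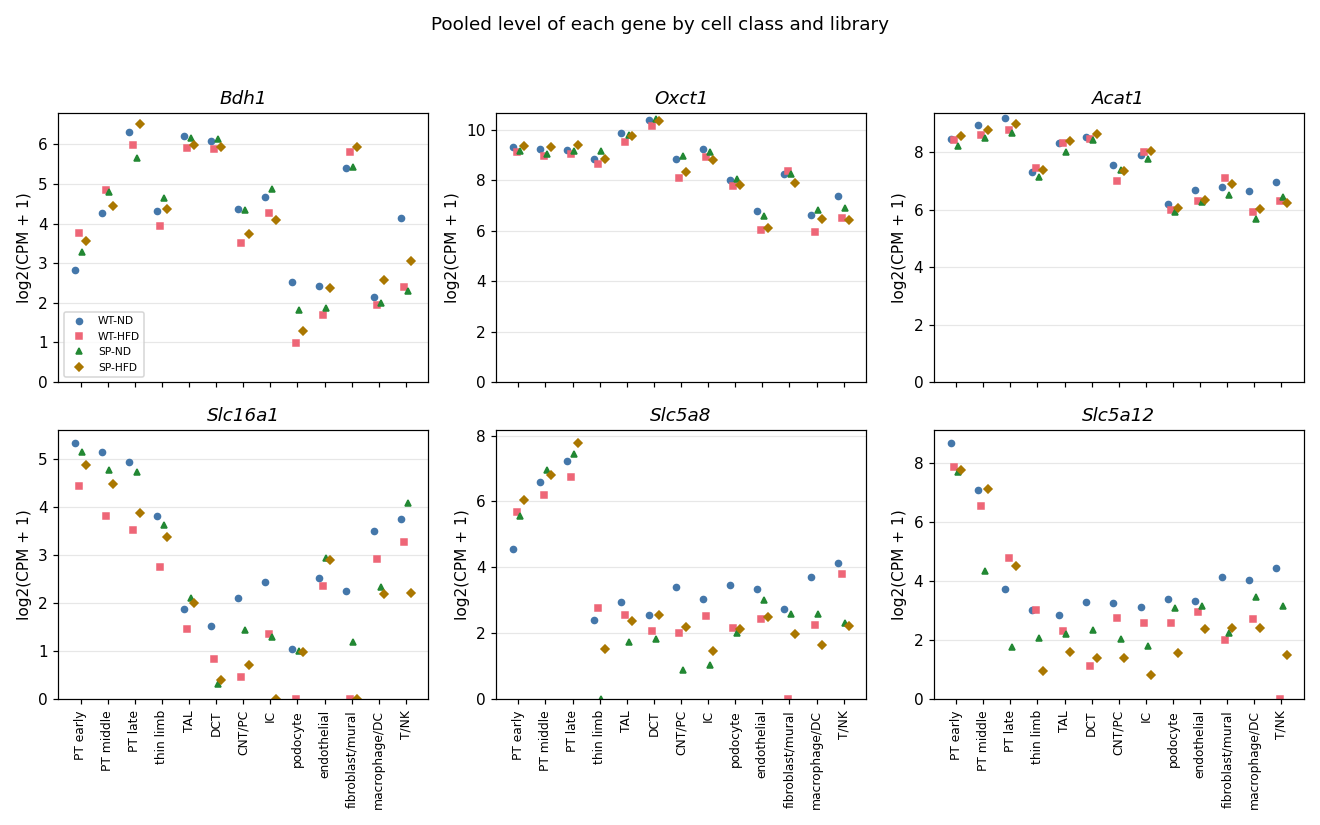
Pooled level of each gene as log2(CPM + 1) in 13 cell classes, 1 point per library (WT-ND, WT-HFD, SP-ND, SP-HFD). *Oxct1* peaks in the DCT, *Bdh1* has high points in late PT, TAL and DCT, and *Slc16a1*, *Slc5a8* and *Slc5a12* are highest in PT classes.

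The transporters showed a different order. *Slc16a1* was highest in early PT (39.1 CPM in WT-ND and 20.6 in WT-HFD, with 34.3 in SP-ND against 28.3 in SP-HFD), then middle and late PT. Late PT was above the next class, T and NK cells, by 1.44 (log2, SE 0.43, edgeR adjusted p = 0.0035). *Slc5a8* was highest in late PT (148, 105, 172 and 217 CPM in the same order of libraries), with 22.6 to 64.4 CPM in early PT. *Slc5a12* was highest in early PT (409, 234, 207 and 219 CPM). Outside the PT both sodium-coupled carriers had class means of 3.00 to 9.31 CPM (*Slc5a8*) and 3.94 to 8.88 CPM (*Slc5a12*), with immune, endothelial and distal tubule classes alike. *Slc5a12* in late PT did not pass the test against the next class, macrophages and dendritic cells (log2 difference 1.25, SE 0.59, edgeR adjusted p = 0.061). Of 12 comparisons between neighbours in each order, 5 passed for *Acat1*, 3 for *Bdh1*, 7 for *Oxct1* and 2 for each of the 3 carriers. Each order was set from the same values that were then tested, so the pairs and their direction were not chosen independently. No adjustment was made over the 12 comparisons of a gene. The share of all genes passing each of these class pairs was not counted, so the counts cannot be read as a trait of these genes.

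Set against early and late PT together, the TAL was higher for *Bdh1* (log2 difference 1.08, SE 0.14) and *Oxct1* (0.24, SE 0.10), and lower for *Acat1* (-0.68, SE 0.09), *Slc16a1* (-3.39, SE 0.21), *Slc5a8* (-4.55, SE 0.29) and *Slc5a12* (-4.34, SE 0.36). All 6 passed the edgeR test, with adjusted p from 7.9e-19 to 0.044, in a comparison in which 62.2% of the 14081 genes tested passed. *Slc16a7* (MCT2), another carrier of the family, was higher in TAL than in PT by 5.07 (SE 0.34) and *Emb*, a chaperone of the family, by 4.71 (SE 0.29). *Slc16a7* read 476 to 593 CPM in the TAL and 754 to 938 CPM in the DCT, and the DCT was the higher in all 4 libraries. Of the 39 genes on the pathway list, 33 were tested, of which 11 were higher and 20 lower in the TAL, with a median log2 difference of -1.13 against -0.04 over all genes.

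Within the PT, the question was how the 6 genes are arranged from early to late. *Bdh1* rose from early to late PT in all 4 libraries, from 6.13 to 77.8 CPM in WT-ND and from 12.5 to 62.3 in WT-HFD, with 8.80 to 49.4 in SP-ND beside 10.7 to 90.1 in SP-HFD. The fitted log2 difference was 2.97 (SE 0.19, edgeR quasi-likelihood test with Benjamini-Hochberg adjustment, adjusted p = 9.7e-16). *Slc5a8* rose by 1.83 (SE 0.24, edgeR adjusted p = 3.4e-07) and *Acat1* by 0.53 (SE 0.10, edgeR adjusted p = 0.00026). *Slc5a12* went the other way, from 409 to 12.4 CPM in WT-ND and from 234 to 26.6 in WT-HFD, with 207 to 2.41 in SP-ND beside 219 to 22.0 in SP-HFD, a fitted log2 difference of -3.98 (SE 0.34, edgeR adjusted p = 2.6e-12). No early value of these 4 genes overlapped a late one. The share of all genes with such a separation was not counted. *Oxct1* showed no difference that the fit could resolve (0.00, SE 0.12, edgeR adjusted p = 1).

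*Slc16a1* was lower in late than in early PT in each library (29.6 against 39.1 CPM in WT-ND, 10.4 against 20.6 in WT-HFD, 25.3 against 34.3 in SP-ND, 13.6 against 28.3 in SP-HFD), with overlapping ranges and a log2 difference of -0.63 (SE 0.18, edgeR adjusted p = 0.019). This call was lost under 6 of the 15 alternatives, among them DESeq2 (adjusted p = 0.17), the fit without the library as a block (edgeR adjusted p = 0.30), and the fits without WT-HFD (edgeR adjusted p = 0.125), SP-ND (0.093) or SP-HFD (0.079). So 5 of the 6 genes passed, 3 higher and 2 lower, where 8.90% of the 14081 genes tested passed in either direction. The libraries served as replicates of a class and differ in condition, so the test asks what holds across all 4. Its SE and p-values come from a fit of all classes together. They can therefore be smaller or larger than the scatter of the 4 late to early ratios of a gene would give, and a test on those ratios alone was not run.

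**Figure D2:**
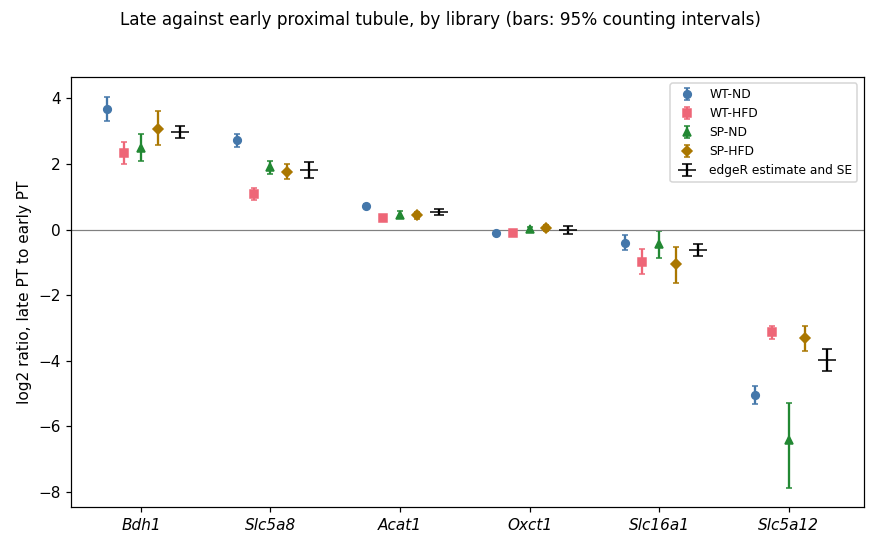
Log2 ratio of late to early PT for each gene in each library with 95% counting intervals (points and bars), beside the edgeR estimate and its SE (black). That SE comes from the fit of all classes in the 4 libraries, not from the 4 points shown. *Bdh1*, *Slc5a8* and *Acat1* lie above 0 in all 4 libraries, *Slc16a1* and *Slc5a12* below 0 in all 4, and *Oxct1* lies near 0.

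Finer steps gave the same order. They subdivide the same classes, since the class borders at 0.4 and 0.6 are also edges of steps. PT cells were cut into 5 equal steps of the axis, each with 57 or more cells in every library. *Slc5a12* in WT-ND read 468, 368, 135, 15.0 and 5.95 CPM from the earliest to the latest step. Its first step was 47.4 to 78.7 times its last over the 4 libraries. That last step rests on 3 to 15 UMIs a library (4.40 to 6.77 CPM). Its level is that of classes outside the PT (means 3.94 to 8.88 CPM), so the size of the fold is uncertain. *Slc5a8* in WT-ND read 12.6, 29.5, 95.3, 147 and 151 CPM, and its last step was 8.04 to 12.9 times its first. *Bdh1* in WT-ND read 5.42, 6.64, 18.2, 70.5 and 96.4 CPM, with a last step 10.9 to 17.8 times the first. *Slc5a8*, *Bdh1* and *Acat1* increased at all 4 steps in each library. *Slc5a8* had reached 95.3 CPM of its 151 in the middle step of WT-ND, where *Bdh1* stood at 18.2 of 96.4. *Acat1* changed less, with a last step 1.66 to 1.90 times its first, and *Oxct1* had a last step 0.866 times its first in both WT libraries, 1.06 times in SP-ND and 1.145 times in SP-HFD.

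**Figure D3:**
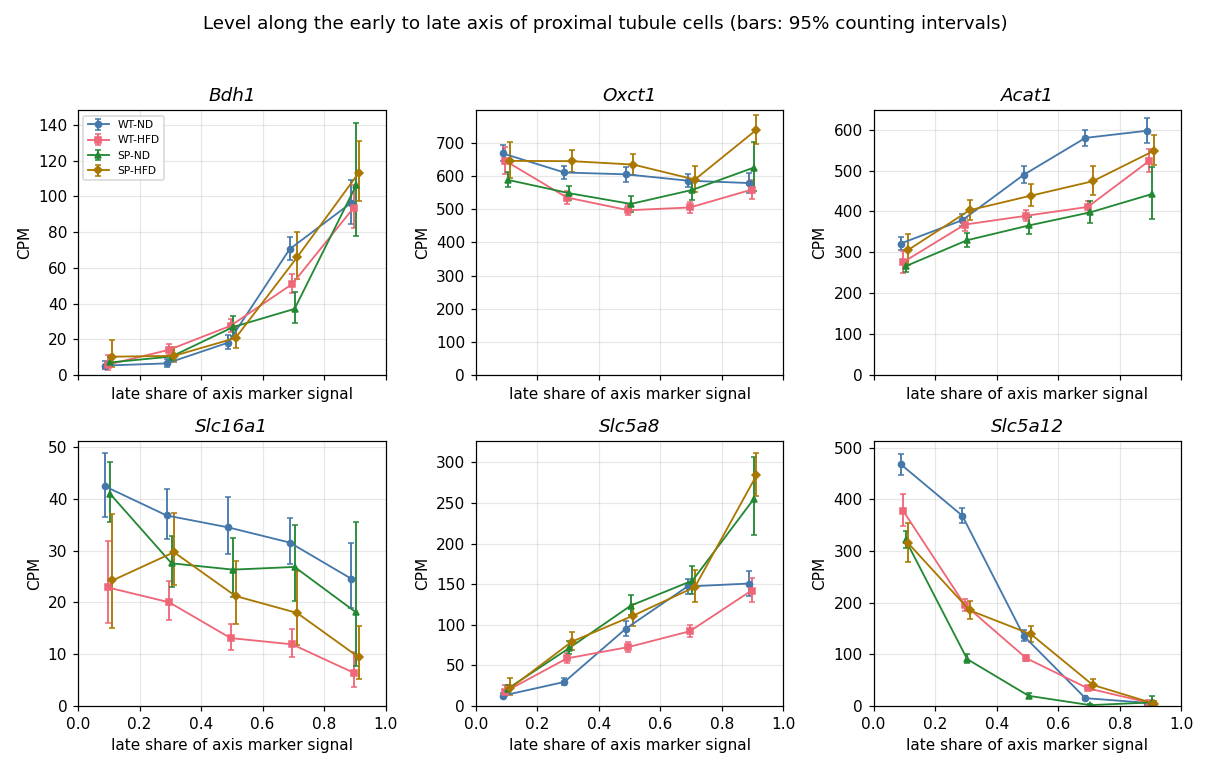
Pooled CPM of each gene in 5 equal steps of the early to late axis of PT cells, by library, with 95% counting intervals. *Slc5a12* drops and *Slc5a8* and *Bdh1* climb in all 4 libraries, *Oxct1* is nearly flat, and *Slc16a1* is lower in both HFD libraries at the earliest and latest steps.

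The sodium-coupled carriers were also followed cell by cell. To compare cells of unequal depth, each was thinned to 1000 UMIs, and 2 to 22 cells of early PT and 0 to 25 of late PT a library were too shallow and left out. *Slc5a12* was then seen in 34.4% of early PT cells in WT-ND (95% Clopper-Pearson interval 31.9 to 37.0) and 16.3% in WT-HFD, with 19.2% in SP-ND against 22.0% in SP-HFD, and in 1.75%, 3.61%, 0% and 2.12% of late PT cells. The 0% was 0 of 194 cells, with an upper limit of 1.88%. *Slc5a8* was seen in 2.098% to 3.40% of early and 8.30% to 21.8% of late PT cells. In T and NK cells, which should lack these carriers, *Slc5a12* was seen in 0% to 2.80% and *Slc5a8* in 0% to 1.61%, so that *Slc5a12* in late PT lay at or below this background in WT-ND (1.75% against 2.80%) and SP-ND (0% against 1.05%). It lay above it in WT-HFD (3.61%, interval 2.56 to 4.95, against 0 of 124 cells, upper limit 2.93%) and in SP-HFD (2.12%, 0.857 to 4.32, against 0 of 187 cells, upper limit 1.95%), with overlapping intervals in both. The 2.80% of WT-ND rests on 107 cells (interval 0.58 to 7.98), and other classes there differed. *Slc5a12* was seen in 0.86% of 1050 TAL and 0.89% of 676 endothelial cells. It was seen in 1.95% of 205 macrophages and dendritic cells and 3.50% of 143 fibroblasts and mural cells. The reading in WT-ND thus depends on the class taken as background. Without thinning the early PT shares of *Slc5a12* were 54.0% to 78.9%, at median depths of 5646 to 12550 UMIs a cell, and the T and NK shares 0% to 3.57%, at 1981 to 3153 UMIs. Among the thinned PT cells, 3 to 10 a library had both carriers: 3.13% to 5.99% of *Slc5a8*-positive cells also had *Slc5a12*, against 8.59% to 21.8% of the *Slc5a8*-negative cells.

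Genes with the most similar pattern were sought by Pearson correlation of log2(CPM + 1) over the 52 class and library points, among 11149 other genes of at least 20 CPM in some point. The points share libraries and depth, and the correlation is a description. For *Oxct1* they were *Uqcrq* (r = 0.956), *Uqcr10* (0.945) and *Ndufa13* (0.936), all subunits of the respiratory chain. *Acat1* was followed by *Mcrip2* (0.947), *Phyh* (0.947) and *Dlst* (0.941), and *Bdh1* less closely by *Usp2* (0.783), *Camk2n1* (0.776) and *Echdc3* (0.767). *Slc5a12* went with *Slc6a19* (0.937), *Slc2a2* (0.869) and *Slc13a1* (0.867), of which *Slc6a19* and *Slc2a2* are among the markers that set the axis. *Slc5a8* went with *Ces2c* (0.953), *Serpinf2* (0.949) and *Mogat1* (0.948), and *Slc16a1* with *Gcnt1* (0.876), *Kcnk5* (0.872) and *Slc47a1* (0.866). Among the 6 genes themselves the closest pair was *Oxct1* and *Acat1* (r = 0.843), and *Bdh1* had r = -0.05 with *Slc16a1*.

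Of the 39 genes on the pathway list, 33 were tested between late and early PT, and 6 were higher and 2 lower. Over all genes tested, 8.90% passed in either direction. The median log2 difference of the list was 0.03 against 0.02 over all genes. Members made up 3 of the 6 higher genes and the 2 lower ones. The other higher genes were *Ldhd* (0.96, SE 0.14), a D-lactate dehydrogenase, *Mpc1* (0.39, SE 0.10), a subunit of the mitochondrial pyruvate carrier, and *Aacs* (0.51, SE 0.16), the cytosolic enzyme that activates acetoacetate for lipid synthesis. *Pdzk1*, a scaffold protein of the brush border, was level (315 to 420 CPM across early and late PT), and *Bsg*, the chaperone of MCT1, read 218 to 279 CPM there.

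Diet and genotype were then compared within early and late PT, with a ratio called past 1.5-fold where either library had at least 10 CPM. The PT cells of the libraries lay in different clusters of expression: of the largest early PT cluster, 1336 cells came from WT-ND and 1002 from SP-ND but 80 from WT-HFD and 48 from SP-HFD, and of the largest late PT cluster 906 of 995 came from WT-ND. A middle PT cluster of 2025 cells held 1955 from WT-HFD, and another of 1540 held 1044 from WT-HFD and 459 from SP-HFD. *Slc16a1* was lower on HFD in both genotypes. In early PT it read 39.1 CPM in WT-ND and 20.6 in WT-HFD (log2 ratio -0.92, 95% interval -1.20 to -0.65), and 34.3 in SP-ND and 28.3 in SP-HFD (-0.28, -0.62 to 0.06). In late PT it read 29.6 and 10.4 CPM in WT (-1.504, -1.85 to -1.16) and 25.3 and 13.6 CPM in SP (-0.90, -1.497 to -0.31). The early PT ratio in WT was -0.14 where classes were set per cluster of cells instead of per cell. The HFD value lay below the ND value at all 5 steps of the axis in WT and at 4 of 5 in SP. Between genotypes on HFD the SP value was the higher one at all 5 steps (median log2 ratio 0.57). On ND it was the lower one at all 5 steps (median log2 ratio -0.39). The 5 steps of each comparison come from the same 2 libraries and share their depth, so they are not separate checks.

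*Slc5a8* was higher in SP than in WT on both diets, in early and in late PT. In early PT on ND it read 46.1 CPM in SP and 22.6 in WT (log2 ratio 1.03, 0.80 to 1.26), and on HFD 64.4 and 49.9 (0.37, 0.12 to 0.62). In late PT on HFD it read 217 CPM in SP and 105 in WT (1.04, 0.90 to 1.19), and on ND 172 and 148 (0.22, 0.06 to 0.38). The SP value was the higher at all 5 steps on ND (median log2 ratio 0.75, range over steps 0.07 to 1.27) and on HFD (0.62, range 0.31 to 1.00), and at the latest step on ND it was 255 against 151 CPM. Here too the steps share 2 libraries and are not replicates. Between diets in early PT of WT it was higher on HFD (log2 ratio 1.14, 0.90 to 1.38), a direction that turned with classes set per cluster (-1.30).

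*Slc5a12* in early PT was highest in WT-ND. It read 409 CPM in WT-ND and 207 in SP-ND (log2 ratio -0.98, -1.06 to -0.91), while on HFD the genotypes read 234 and 219 CPM (-0.10, -0.23 to 0.03). HFD against ND gave -0.81 (-0.89 to -0.72) in WT and 0.08 (-0.04 to 0.20) in SP, where it was -0.72 among cells under 30% mitochondrial UMIs. At matched steps of the axis in WT, HFD was lower at 3 of 5 and higher at 2, with a median log2 ratio of -0.31. The earliest step held 612 cells in WT-ND and 196 in WT-HFD. The part of cell position within early PT in the -0.81 was not tested. In SP-ND the decline along the axis came early: 321, 90.6, 19.5, 1.47 (3 UMIs) and 6.77 CPM from first to last step, beside 315, 185, 138, 40.6 and 4.40 CPM in SP-HFD. The late PT ratios of this gene rest on few counts (6 UMIs in SP-ND), and its late PT reading of 26.6 CPM in WT-HFD and 22.0 CPM in SP-HFD sits beside 8.88 CPM or less as the mean of classes outside the PT.

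The diet ratios of the enzymes had opposite signs in WT and SP, with intervals clear of 0, for *Oxct1* in early PT and for all 3 enzymes in late PT. CPM totals include mitochondrial UMIs, whose share differed between the libraries. Its median in late PT was 30.8% in WT-ND and 28.3% in WT-HFD, with 33.4% in SP-ND against 25.5% in SP-HFD. In early PT it was 32.6%, 28.1%, 37.2% and 34.1% in the same order. The enzyme ratios over non-mitochondrial totals are not given here. *Oxct1* in early PT read 634 CPM in WT-ND and 558 in WT-HFD (log2 ratio -0.18, -0.24 to -0.13), but 568 in SP-ND and 645 in SP-HFD (0.18, 0.11 to 0.25). In late PT *Acat1* read 585 CPM in WT-ND and 441 in WT-HFD (log2 ratio -0.41, -0.47 to -0.35), but 406 in SP-ND and 512 in SP-HFD (0.34, 0.22 to 0.45). *Bdh1* in late PT read 77.8 and 62.3 CPM in WT (-0.32, -0.48 to -0.16) and 49.4 and 90.1 CPM in SP (0.87, 0.56 to 1.19), and in the last step of the axis, 96.4, 93.6, 106 and 113 CPM in the same order of libraries (WT-ND, WT-HFD, then SP-ND, SP-HFD). In early PT *Bdh1* was higher in WT-HFD than in WT-ND (12.5 against 6.13 CPM, log2 ratio 1.02, 0.549 to 1.504), past 1.5-fold, which it did not pass under 30% mitochondrial UMIs (0.57) or with classes set per cluster (0.53). In the TAL, *Oxct1* read 934 CPM in WT-ND and 732 in WT-HFD, with 886 in SP-ND against 849 in SP-HFD. The lower *Oxct1* in WT-HFD than in WT-ND was not particular to the PT. It read 454 and 272 CPM in connecting tubule and principal cells and 107 and 64.4 CPM in endothelial cells. Of the classes tested in WT, only fibroblasts and mural cells went the other way (304 and 323 CPM). In SP, *Oxct1* was also lower on HFD in every class tested outside the PT. There it read 497 and 317 CPM in connecting tubule and principal cells and 95.4 and 68.0 CPM in endothelial cells. Among the classes tested, the higher *Oxct1* on HFD in SP was thus seen in PT classes only. Cells outside these classes differed from this. Those with markers of several classes were higher on HFD in SP (1506 CPM against 967 on ND). PT cells left unplaced on the axis were lower (299 CPM against 372 on ND).

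**Figure D4:**
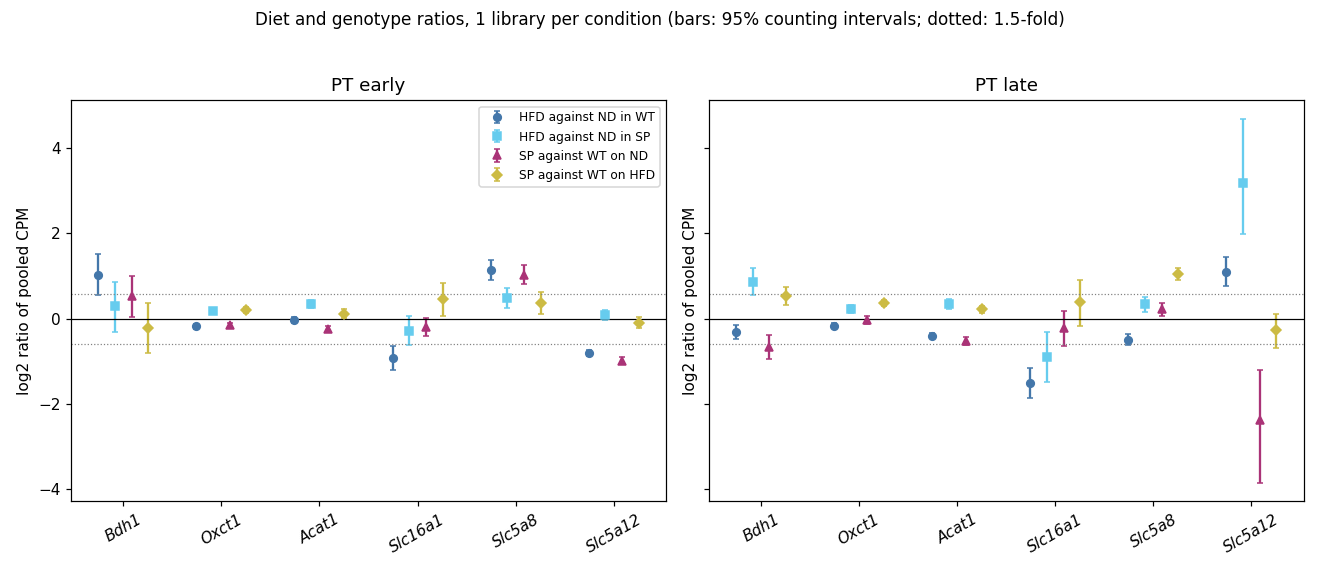
Log2 ratio of pooled CPM between 2 libraries for the 4 diet and genotype comparisons in early (left) and late (right) PT, with 95% counting intervals and dotted lines at 1.5-fold. *Slc16a1* lies below 0 for HFD against ND in both classes and genotypes, and *Slc5a8* lies above 0 for SP against WT in both classes and diets.

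By count, HFD against ND in WT took 4 of 6 members past 1.5-fold in early PT (background 12.4% of genes in either direction) and 2 of 6 in late PT (19.1%). In SP it took 0 of 6 in early PT (15.1%) and 3 of 6 in late PT (20.3%). SP against WT took 2 of the 5 measured in early PT on ND (4.36%), 2 of 6 in late PT on ND (10.8%), 0 of 6 in early PT on HFD (5.72%) and 1 of 6 in late PT on HFD (16.0%). The comparisons share libraries. Some of these differences moved with the markers of the axis: the 8 late markers summed to 1549 CPM in early PT of WT-ND and 2530 in WT-HFD, with 1119 in SP-ND against 2487 in SP-HFD, and in late PT they summed to 4428, 4632, 4108 and 6793 CPM in the same order of libraries, highest in SP-HFD, where late PT *Slc5a8* and *Bdh1* also had their highest values. The early markers summed to 3456, 2934, 3053 and 3085 CPM in late PT. Their part in the results, and that of the TAL markers in WT-HFD, was not tested.

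Of the other listed genes, *Aacs* was higher on HFD in early PT of WT (24.1 and 46.0 CPM) and SP (31.4 and 64.4 CPM). *Slc16a12*, another carrier of the family, was lower on HFD in early PT of WT (91.5 and 63.0 CPM) and SP (109 and 72.7 CPM).

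*Slc16a7* and *Emb* stood out in WT-HFD alone: in late PT *Slc16a7* read 57.6 CPM there and 4.71 to 8.40 CPM in the other libraries, and *Emb* (named after its values were seen) 17.2 CPM against 2.80 to 4.02. Both were higher in the TAL than in PT, with *Slc16a7* at 476 CPM in the WT-HFD TAL. The TAL markers were raised in the same pooled class and library, as given above. Whether single cells held both was not tested. Of the 39 listed genes, 29 were measured in early PT for HFD against ND in WT, with 7 higher and 3 lower past 1.5-fold and a median log2 ratio of 0.33 against 0.01 over all genes, and 28 in SP, with 3 higher and 2 lower and a median of 0.20 against 0.01. In late PT, 30 were measured in WT, with 3 higher and 4 lower and a median of -0.0039, and 28 in SP, with 6 higher and 4 lower and a median of 0.09. Over all genes the shares past 1.5-fold in either direction were 12.4% and 15.1% in early PT of WT and SP, and 19.1% and 20.3% in late PT.

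*Slc5a2* itself, the mutated gene, read 562 CPM in WT-ND and 412 in WT-HFD, with 89.1 in SP-ND against 162 in SP-HFD in early PT. HFD went with the lower value in WT and with the higher one in SP. A missense change need not alter RNA, so these values do not check the labels.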

How the data were processed

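Whole-kidney cells of 4 groups were profiled by 10x 3′ single-cell RNA-seq, 1 library each. The authors deposited raw UMI counts per gene and barcode, made with Cell Ranger (2.1.1 in the processing notes, 6.1.2 in the file headers) on build mm10, with no normalization. The deposited counts hold 58660 barcodes. Cells with 200 to 5000 genes and under 50% mitochondrial UMIs were kept, and the barcodes most like simulated doublets were removed (0.8% per 1000 cells), leaving 32280. Class was set per cell from marker UMIs, and PT cells were called early below 0.4 and late above 0.6 of the late share of axis-marker signal, with at least 10 axis UMIs; 21.6% to 41.5% of PT cells a library were left unplaced.

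UMIs were summed per class and library and tested with edgeR 4.0.16 (quasi-likelihood, TMM, library as block, 52 sums, 14081 genes, Benjamini-Hochberg, 0.05), with R 4.3.3. The libraries stand as replicates of a class. All classes were fitted in 1 model with 36 residual degrees of freedom. The SE and p-values therefore rest on scatter between libraries pooled over all classes, not on the 2 classes compared alone. Conditions were compared by the ratio of pooled CPM with an exact conditional binomial 95% interval. Numerical steps used Python 3.11.15 with scipy 1.17.1. The scripts were tested on simulated data. Alternatives included DESeq2 1.42.0, other filters and scalings, ambient subtraction and classes set per cluster.

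Text names the 6 members, *Bsg*, *Pdzk1*, pathway genes with at least 20 CPM in early or late PT of a library, the 3 most alike genes per member, and *Slc5a2*. The members and lists were chosen with earlier results of these data known. Some items of the pathway list are not reported here.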

Additional observations from a re-analysis of the deposited data

Results flagged for a closer look

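In 5 of 12 pairs of diet ratios (6 genes, early and late PT), HFD lay on opposite sides of ND in WT and in SP, with both counting intervals clear of 0. The same count was not made over all genes, so it cannot be read as a trait of these 6. The intervals cover counting error only and clear 0 at small ratios where counts are high. They do not cover the mitochondrial share of the totals, whose median in late PT was 33.4% in SP-ND and 25.5% in SP-HFD (30.8% in WT-ND, 28.3% in WT-HFD). The difference between genotypes was not tested, since each condition is 1 library. *Oxct1* in early PT had a log2 ratio of -0.183 in WT and 0.182 in SP. In late PT, *Oxct1* had -0.169 in WT and 0.225 in SP, *Acat1* -0.406 and 0.336, *Bdh1* -0.321 and 0.868, and *Slc5a8* -0.492 and 0.334. Along the axis, *Oxct1* and *Acat1* were lower on HFD at 5 of 5 steps in WT and higher at 5 of 5 in SP. The steps of a comparison hold cells of the same 2 libraries, so their shared sign does not replicate the ratio. The other genes did not keep 1 sign: *Bdh1* was higher on HFD at 3 of 5 steps in WT and 4 of 5 in SP, and *Slc5a8* at 2 of 5 in WT and 3 of 5 in SP. In late PT of WT-HFD the 6 TAL markers summed to 1478 CPM, against 141 CPM in WT-ND, and in late PT of SP-HFD the 8 late markers summed to 6793 CPM, against 4108 CPM in SP-ND. The part of these markers in the ratios was not tested.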

How the results depend on the processing

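Late against early PT kept the direction of the 5 members that passed under all 15 alternatives, and 4 or 5 members passed. Leaving out each library in turn gave 740 to 1262 genes past the edgeR test, against 1253 with all 4 (749 without WT-ND, 808 without SP-ND, 740 without SP-HFD). Without the library as a replicate block 792 genes passed. No paired analysis was possible because the groups of each diet and genotype comparison have 1 library each and so share fewer than 2 replicate numbers. A fit of diet or genotype as a main effect over all 4 libraries was not run.

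Genes past 1.5-fold in early and late PT together moved most. For HFD against ND in WT, 2244 became 3545 with a mean over cells, 6347 with classes set per cluster and 9415 with no CPM minimum. In SP, 2553 became 4145, 7473 and 8220, and 4441 under 30% mitochondrial UMIs, while member ratios went from 3 to 5 under 30% mitochondrial UMIs and 6 per cluster. For SP against WT on ND, 1047 became 1650 with non-mitochondrial totals, 1921 with a mean over cells, 2801 under 30% mitochondrial UMIs, 2575 per cluster and 6858 with no minimum. On HFD, 1582 became 4255, 2627 under 30%, 6394 per cluster and 7757 with no minimum, and member ratios went from 1 to 4 with a mean over cells, 3 under 30%, 4 per cluster and 3 with early markers without *Spp2*, chosen after seeing the data. The highest class was kept by 5 of 6 members under 30% mitochondrial UMIs.

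With classes set per cluster, log2 ratios of HFD against ND turned in early PT for *Slc5a8* (-1.295 in WT and -2.766 in SP) and *Bdh1* in SP (-0.760), and in late PT for *Slc5a12* in SP (-0.467). Under 30% mitochondrial UMIs *Slc5a12* in early PT of SP turned (-0.724). The cause was not tested. Of the diet and genotype ratios of single genes, 492 kept their side of the 1.5-fold threshold. Another 22 passed it newly, 7 no longer did and 5 turned. A ratio short of the threshold in both settings counts as kept even where its sign changed. Of the late against early values, 84 kept their test call and 6 lost it. Of levels and gradients, 16 stayed within the SD over libraries and 7 moved. Ambient subtraction gave no value for *Slc5a12* in late PT of SP-ND, nor did a gradient value follow for it under 30% mitochondrial UMIs. In late PT of SP-ND, 6 UMIs of *Slc5a12* limit its ratios.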
